A study of Mus musculus with 12 samples.

Results

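The 10 genes described here are the mitochondrially encoded subunits of respiratory complex I (mt-Nd1, mt-Nd2, mt-Nd3, mt-Nd4, mt-Nd4l, mt-Nd5 and mt-Nd6) and of complex IV (mt-Co1, mt-Co2 and mt-Co3). They were selected by symbol, through their Ensembl identifiers, from the 19268 genes of the table. The selection rule used no measured value, but the set was chosen with earlier results of these data known. RNA was sequenced from forebrain without the olfactory bulb. The male mice, on a C57BL/6J background, were juveniles of 25 days after birth (P25) or adults of 60 days (P60). The mice were wild-type (WT) or homozygous for a deletion of internal Shank3 exons (KO), with 3 libraries in each of P25-WT, P25-KO, P60-WT and P60-KO. The tissue was a mixture of forebrain cell types, and in such bulk samples a change in the number of cells of a type and a change in RNA per cell cannot be told apart.

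Mitochondria keep a small circular genome whose protein genes all encode membrane subunits of the oxidative phosphorylation machinery. Complex I takes electrons from NADH and pumps protons across the inner membrane, and complex IV (cytochrome c oxidase) passes electrons to oxygen and pumps protons as well. Both complexes also need many subunits from nuclear genes, so their assembly draws on both genomes, and neurons depend heavily on them for ATP. Transcription of the mitochondrial genome gives long RNAs from each strand, which are cut at the tRNAs that lie between most genes. Most of the resulting messenger RNAs are then polyadenylated. Of the 10 genes, mt-Nd6 is the one on the strand opposite to the others.

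Large parts of some of these genes also exist as near-identical copies in the nuclear genome. Some copies are listed as genes of their own in the table. For 5 of the 10 genes, 7 nuclear copies were listed that share 31-base words with them, and 5 of these copies lie side by side on the minus strand of chromosome 1, between positions 24612407 and 24616197 (GRCm38). The other 5 shared no words with a listed copy. Of these, mt-Nd4 shared 62.8% of its words with Gm28439 of chromosome 1, which was not in the table. For mt-Nd5, mt-Nd2 and mt-Nd6 the shares with unlisted genes were 16.8%, 13.5% and 7.36%, and for mt-Nd1 0%. The following sequences, from GENCODE M21 transcripts, are shown because they decide how far sequencing reads can tell a gene from its copy. The first pair is mt-Nd4l (chrM:9877-10173, plus strand) and Gm10222 (chr1:24612407-24612700, minus strand), each whole, with capitals for the 3 bases of mt-Nd4l past the end of the copy.
mt-Nd4l: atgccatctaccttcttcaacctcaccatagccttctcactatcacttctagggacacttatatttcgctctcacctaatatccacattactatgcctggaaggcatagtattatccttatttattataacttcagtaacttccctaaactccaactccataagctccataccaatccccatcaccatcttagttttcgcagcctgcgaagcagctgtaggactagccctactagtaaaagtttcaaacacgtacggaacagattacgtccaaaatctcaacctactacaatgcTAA
Gm10222: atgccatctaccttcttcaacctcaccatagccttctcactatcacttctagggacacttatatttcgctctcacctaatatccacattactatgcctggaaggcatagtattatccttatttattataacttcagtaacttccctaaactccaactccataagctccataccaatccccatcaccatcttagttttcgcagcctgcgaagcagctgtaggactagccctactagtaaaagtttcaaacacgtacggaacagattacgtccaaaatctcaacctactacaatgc
All 294 bases of the copy were identical to mt-Nd4l, so a read within them fits both.

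The next pair is the first 60 bases of mt-Nd3 (chrM:9459-9518, plus strand) and of Gm28438 (chr1:24613060-24613119, minus strand), with capitals for the base that differs, T3C counted from the first base of the gene.
mt-Nd3: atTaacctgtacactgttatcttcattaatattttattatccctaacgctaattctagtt
Gm28438: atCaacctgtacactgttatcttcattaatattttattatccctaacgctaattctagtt
It was the single difference over the 345 bases of the copy. The last bases of mt-Co2 (chrM:7637-7696, plus strand) with Gm28661 (chr1:24614885-24614941, minus strand), and of mt-Co3 (chrM:9331-9390, plus strand) with Gm28437 (chr1:24613189-24613247, minus strand), show what those pairs can be told apart by, with capitals for the bases past the end of the copy.
mt-Co2: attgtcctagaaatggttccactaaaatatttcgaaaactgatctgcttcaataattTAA
Gm28661: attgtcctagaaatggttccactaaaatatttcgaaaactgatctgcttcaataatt
mt-Co3: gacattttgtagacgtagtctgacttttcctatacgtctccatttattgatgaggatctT
Gm28437: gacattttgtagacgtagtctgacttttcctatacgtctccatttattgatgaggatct
The 681 bases of Gm28661 and the 783 bases of Gm28437 held no difference from mt-Co2 and mt-Co3. The annotated mt-Co3 ends in a lone T, as does mt-Nd4, which the poly(A) tail completes to a stop codon. For mt-Co1, the copy Gm29216 covered the last 492 of 1545 bases with 6 differences (T1056A, C1057T, A1059G, A1060G, C1062A and A1066T, counted from the first base of mt-Co1), and Gm13340 on chromosome 2 was 97.6% identical over its whole length. The 7th copy, Gm13341 on chromosome 2, held 47.1% of the 31-base words of mt-Co2.

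The annotation also overlaps 2 pairs of the 10 genes. The ends of mt-Nd5 (chrM:13526-13565, plus strand) and mt-Nd6 (chrM:13552-13591, minus strand) share 14 bases on opposite strands, shown in capitals because the library kit does not mark strand.
mt-Nd5: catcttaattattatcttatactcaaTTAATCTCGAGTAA
mt-Nd6: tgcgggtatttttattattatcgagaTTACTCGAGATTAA
RNA of the opposite strand across mt-Nd6 could therefore not be told apart from mt-Nd6 itself. The genes mt-Nd4l and mt-Nd4 share 7 bases on 1 strand, which hold the stop codon of the former and the start codon of the latter.

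Values were DESeq2-normalized counts as the authors deposited them, and the sequencing depth behind them is unknown. The table totals lay between 30568259 and 32348554 normalized counts per library. Shank3 was listed at 4535 to 5729 in the 6 KO libraries and at 8936 to 11683 in the 6 WT libraries, so KO and WT did not overlap. Single exons were not examined, so these levels do not tell a homozygous from a heterozygous deletion. All 10 forebrain markers checked were present, with summed levels of 73130 to 76403 at P25 and 66268 to 69287 at P60, without overlap between the ages, against 194 to 861 for 7 hindbrain and spinal cord markers. Markers of some cell types were apart between the ages. The 4 oligodendrocyte markers reported (Mbp, Mog, Mag, Mobp) summed to 222059 to 297320 at P25 and to 118240 to 137783 at P60, and the 5 blood markers (Hba-a1, Hba-a2, Hbb-bs, Hbb-bt, Alas2) to 20503 to 42983 and to 5894 to 7305. The 5 astrocyte markers summed to 32681 to 37408 at P25 and to 28135 to 31013 at P60, while the 5 neuron markers summed to 142951 to 155023 at P25 and to 158582 to 169523 at P60, each without overlap between the ages. The sums for microglia (4831 to 6318 at P25 and 4375 to 5785 at P60), endothelial cells (3953 to 5456 and 3946 to 7047) and choroid plexus (10251 to 14172 and 12198 to 18037) overlapped. Their part in the age comparisons was not tested. P25-WT replicate 2 stood apart, with the highest value of the P25 libraries for 7 of the 10 genes.

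The 10 genes together made up 3.03% to 3.58% of the table total at P25 and 3.67% to 4.29% at P60. With the 7 nuclear copies the range was 4.12% to 4.87% at P25 and 4.85% to 5.60% at P60. No value of the 10 genes was 0 in any library. Per kilobase of annotated length, the catalytic subunit mt-Co1 was highest in every library (mean 337366 ± 36264 normalized counts per kb, SD over 12 libraries). It was followed by mt-Nd1 (134071 ± 12683), mt-Nd4 (117264 ± 10839) and mt-Nd2 (85603 ± 12348), each above the next in all 12 libraries, except that mt-Nd2 exceeded mt-Co3 in 11. The levels of mt-Co3 (58390 ± 16506) and mt-Nd5 (57169 ± 6005) crossed, with mt-Co3 higher in 6 of 12 libraries. Below them lay mt-Nd6 (43067 ± 4678), mt-Co2 (33626 ± 8930), mt-Nd3 (31213 ± 11371) and mt-Nd4l (17656 ± 6033), and mt-Co2 exceeded mt-Nd3 in 8 of 12 libraries.

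Adding the nuclear copies changed this order. The copies held most of the value of 3 genes: mt-Co2, whose subunit accepts electrons from cytochrome c, was listed with 12.1% of the sum of gene and copies over the 12 libraries, mt-Co3 with 23.4% and mt-Nd4l with 27.98%. The other 2 kept the larger share, 73.9% for mt-Nd3 and 93.1% for mt-Co1. On the summed per-kilobase scale mt-Co1 (362268 ± 39260) was followed by mt-Co2 (277043 ± 16989) and mt-Co3 (249479 ± 26316), so that the 3 complex IV genes lay above all 7 complex I genes in every library. On this scale mt-Nd4l (63114 ± 8745) passed mt-Nd5, which it exceeded in 11 libraries, and mt-Nd3 (42226 ± 4828) came close to mt-Nd6, which was higher in 8 of 12.

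**Figure D1:**
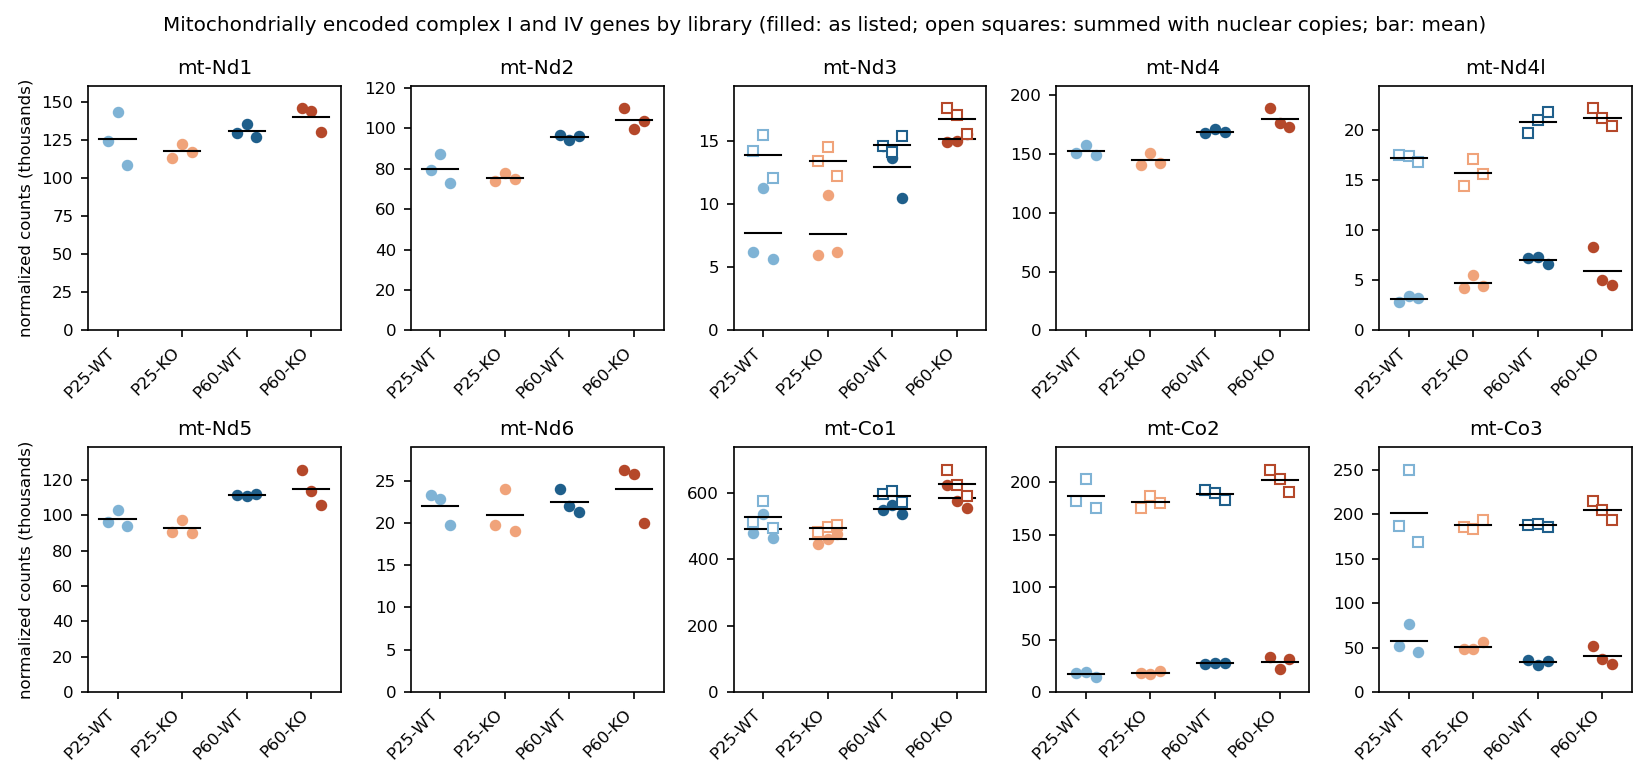
Normalized counts (linear axis from 0, scaled as its label says) of the 10 genes in each library by group; filled points are the listed values, open squares the sums with nuclear copies, and bars the group means of 3 libraries. The summed values of mt-Co2 and mt-Co3 lie far above the listed ones, and the P60 points of mt-Nd2 and mt-Nd4 lie above all P25 points.

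The share listed on the mitochondrial gene itself differed between libraries, and its differences between groups were not tested. For mt-Co3 it was 26.2% to 30.5% at P25 and 16.2% to 24.3% at P60, and the 2 ages did not overlap. For mt-Co2 the share was 8.41% to 11.2% at P25 and 10.7% to 16.4% at P60, with overlap. For mt-Nd3 it was 43.8% to 73.6% at P25 and 68.1% to 100% at P60, where Gm28438 was listed at 0 in P60-KO replicate 3 and P60-WT replicate 1. For mt-Nd4l it was 16.2% to 19.7% in P25-WT, 28.2% to 32.5% in P25-KO, 30.6% to 36.8% in P60-WT and 22.2% to 37.7% in P60-KO, so that the genotypes were apart at P25 and overlapped at P60. The share of mt-Co1 stayed within 92.1% to 94.4%. Listed values of 4 genes thus combined the level of gene plus copy with a division between them that differed between libraries, and values with copies are given beside the listed ones in each comparison. Summing was an alternative added after these values had been seen.

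**Figure D2:**
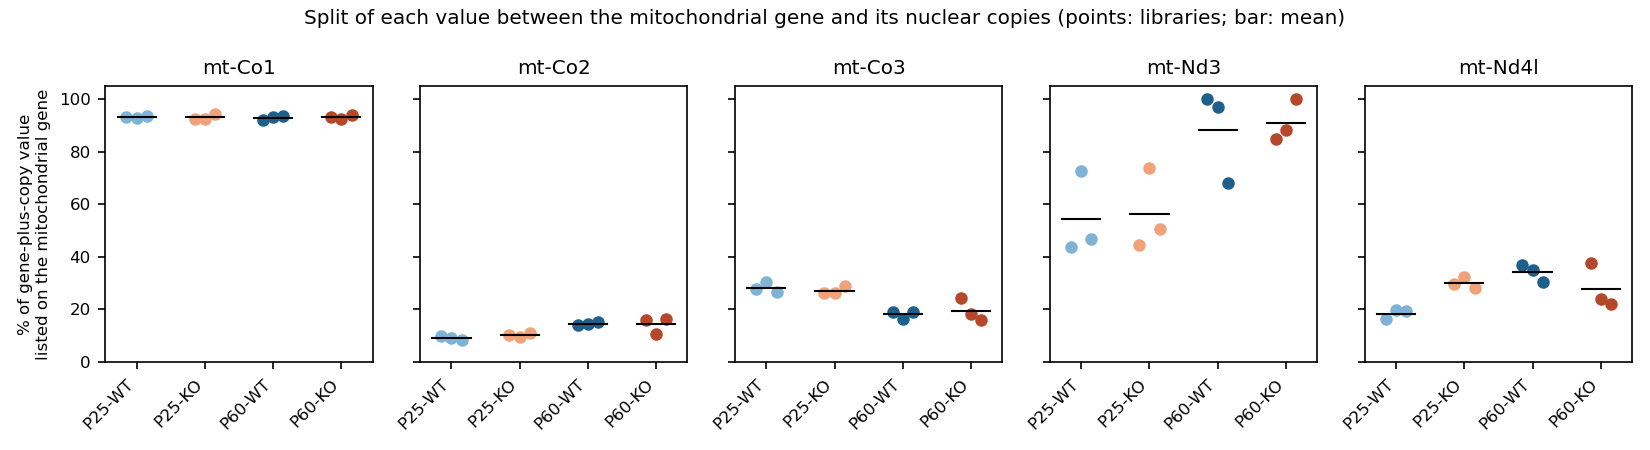
Share (%) of the sum of gene and nuclear copies that was listed on the mitochondrial gene, for the 5 genes with copies in the table; points are libraries and bars the means of 3. The share of mt-Co3 was lower and that of mt-Nd3 mostly higher at P60, and mt-Co1 was flat.

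To ask how these genes differ between the juvenile and the adult forebrain, P60 was compared with P25 over all 12 libraries, averaged over genotype. Of the 10 genes, 7 were higher and 1 was lower at P60 (limma, Benjamini-Hochberg adjusted p under 0.05), where 37.6% of the 17594 genes tested were called, 18.3% higher and 19.3% lower. The median log2 difference of the 10 was 0.25, against 0.00 over all genes tested. Summed with nuclear copies, 6 of 10 were higher and none was lower, with a median of 0.22, and all 10 differences were positive. Without P25-WT replicate 2, 9 of 10 were higher with copies, all but mt-Nd6, where 3238 of 17587 genes were higher and 3501 lower. Over all leave-outs the count ran from 5 to 9, and that over all genes from 5585 to 6741. Scaling all libraries to equal totals moved the split over all genes from 3219 higher and 3397 lower to 4038 higher and 2730 lower.

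Among the complex I genes without a listed copy, mt-Nd2, a proton-pumping subunit of the membrane arm, was listed at 79369, 87521 and 72952 in P25-WT, 73909, 77780 and 74755 in P25-KO, 96800, 94010 and 96148 in P60-WT and 109931, 99523 and 103578 in P60-KO. Every P60 library lay above every P25 library. The log2 difference was 0.36 ± 0.05 (SE; adjusted p = 0.000101 by limma).

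The subunit mt-Nd4, also of the proton-pumping membrane arm, was listed at 151260, 157896 and 149617 in P25-WT, 140628, 151328 and 142439 in P25-KO, 167828, 170998 and 168663 in P60-WT and 189024, 176280 and 173114 in P60-KO. The ages did not overlap here either, and the difference was 0.23 ± 0.04 (adjusted p = 0.000663 by limma). After removal of the dependence of each library on transcript length and GC content, it was 0.10 and no longer called (adjusted p = 0.0596).

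For mt-Nd5, the largest of the membrane-arm subunits, the levels were 90134 to 103128 at P25 and 105916 to 125820 at P60, again without overlap, and rose by 0.25 ± 0.05 (adjusted p = 0.000793 by limma). The subunit mt-Nd1, which lies next to the quinone site, ranged from 108744 to 143009 at P25 and from 126941 to 145699 at P60. The ranges overlapped through P25-WT replicate 2, and the difference of 0.16 ± 0.06 was not called (adjusted p = 0.0508 by limma). Without that library it was 0.22 and called (adjusted p = 0.00136), and it was also called at the same total over all genes (0.20, adjusted p = 0.0143) or over nuclear genes (0.22, adjusted p = 0.0115). The gene mt-Nd6, on the other strand, ranged from 19080 to 23982 at P25 and from 19989 to 26303 at P60, with a difference of 0.11 ± 0.08 and a 95% interval of -0.05 to 0.28 (adjusted p = 0.275 by limma). Its values may hold RNA of the opposite strand, which the library kit does not tell apart.

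The catalytic subunit of complex IV, mt-Co1, was listed at 477540, 535112 and 462481 in P25-WT, 444238, 459882 and 474783 in P25-KO, 549245, 564065 and 535962 in P60-WT and 622716, 576001 and 552741 in P60-KO. The lowest P60 library was just above the highest P25 library, P25-WT replicate 2. It rose by 0.25 ± 0.05 as listed and by 0.26 ± 0.05 with copies (adjusted p = 0.00127 and 0.00117 by limma).

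The electron-accepting subunit mt-Co2 was listed at 18327, 18813 and 14735 in P25-WT, 17986, 17484 and 20166 in P25-KO, 26817, 27195 and 27668 in P60-WT and 33738, 21802 and 31273 in P60-KO. The ages did not overlap, and the listed difference was 0.64 ± 0.09 (adjusted p = 0.000114 by limma). Summed with Gm28661 and Gm13341, the levels were 182302, 203410 and 175180 in P25-WT, 175155, 186601 and 180200 in P25-KO, 192605, 189835 and 183197 in P60-WT and 211789, 203179 and 190513 in P60-KO. The ages overlapped on this scale, and the difference was 0.09 ± 0.05 with a 95% interval of -0.01 to 0.18 (adjusted p = 0.151 by limma). Without P25-WT replicate 2 it was 0.12 and called (adjusted p = 0.0115).

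The third core subunit, mt-Co3, which carries no redox centre, was listed at 51674, 76355 and 44952 in P25-WT, 48705, 48205 and 56341 in P25-KO, 35818, 30935 and 35252 in P60-WT and 52137, 37604 and 31352 in P60-KO. P60-KO replicate 1 lay within the P25 range and the other 5 P60 libraries below it. It was the single listed gene that fell, by 0.55 ± 0.13 on the log2 scale (adjusted p = 0.00525 by limma). Summed with Gm28437, P25-WT replicate 2 was highest of all at 250340 and P25-WT replicate 3 lowest at 168629, and the difference was 0.02 with a 95% interval of -0.14 to 0.18 (adjusted p = 0.867 by limma). This value rested on P25-WT replicate 2, without which it was 0.10 and called higher (adjusted p = 0.0298); without P25-WT replicate 3 it was -0.02.

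The small subunits mt-Nd3 and mt-Nd4l lie next to each other in the genome, apart from a tRNA. As listed, mt-Nd3 was at 6219, 11281 and 5663 in P25-WT, 5974, 10730 and 6197 in P25-KO, 14604, 13686 and 10507 in P60-WT and 14918, 15017 and 15550 in P60-KO. Replicate 2 of both P25 groups was higher than the other P25 libraries and reached the lowest P60 library. The listed difference was 0.92 ± 0.17 (adjusted p = 0.000761 by limma), and with Gm28438 it was 0.20 ± 0.07 (adjusted p = 0.0277). The latter was no longer called without any 1 of 6 libraries (replicates 1 and 3 of P25-KO, replicate 3 of P25-WT, replicates 1 and 2 of P60-KO and replicate 3 of P60-WT), with adjusted p-values by limma up to 0.0715.

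For mt-Nd4l the listed levels were 2840, 3426 and 3266 in P25-WT, 4279, 5542 and 4394 in P25-KO, 7244, 7328 and 6668 in P60-WT and 8350, 5074 and 4517 in P60-KO. The WT ages were far apart and the KO ages overlapped. Summed with Gm10222, the levels were 17522, 17429 and 16796 in P25-WT, 14390, 17078 and 15569 in P25-KO, 19687, 20996 and 21776 in P60-WT and 22172, 21169 and 20353 in P60-KO. On this scale every P60 library exceeded every P25 library, and the difference was 0.36 ± 0.05 (adjusted p = 9.46e-05 by limma), against 0.73 ± 0.16 as listed (adjusted p = 0.00336).

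**Figure D3:**
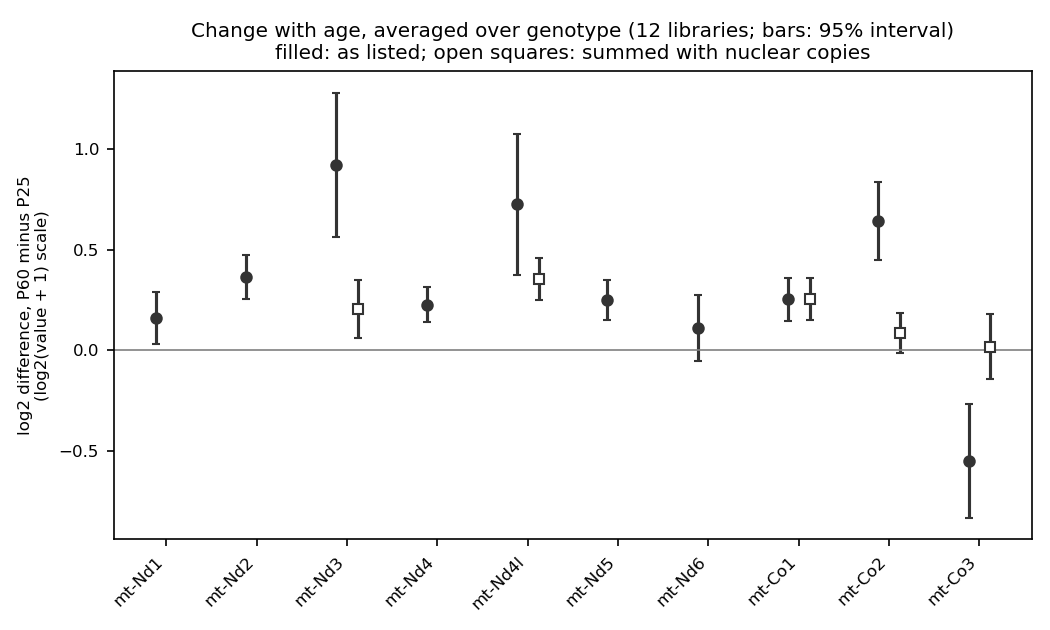
Log2 difference between P60 and P25 averaged over genotype for the 10 genes, with 95% intervals from limma; filled points are listed values and open squares sums with nuclear copies. The summed values of mt-Nd3, mt-Nd4l, mt-Co2 and mt-Co3 lie between 0.02 and 0.36, while the listed ones run from -0.55 to 0.92.

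Within WT mice, 3 of the 10 genes were called as listed, where 8.65% of genes were called, 3.66% higher and 4.99% lower. They were mt-Nd4l (1.16 ± 0.09, adjusted p = 0.000251 by limma) and mt-Co2 (0.66 ± 0.09, adjusted p = 0.00736), both higher, and mt-Co3, which fell by 0.73 ± 0.17 (adjusted p = 0.0334). With copies mt-Co2 differed by 0.01 ± 0.07, mt-Co3 by -0.08 ± 0.12, mt-Nd3 by 0.09 ± 0.09 and mt-Co1 by 0.17 ± 0.07 (adjusted p = 0.909, 0.688, 0.576 and 0.15 by limma). With copies, mt-Nd4l was the single call (0.27 ± 0.06, adjusted p = 0.0354 by limma), where 8.73% of genes were called, 3.71% higher and 5.02% lower. The ages did not overlap for 7 of the 10 genes as listed and for 4 with copies, against 36% of all genes, and the latter count is near that share. The call of mt-Co3 was lost without each of the 3 P60-WT libraries and without P25-WT replicate 1, and that of mt-Co2 without P60-WT replicate 3. Both were also lost without an intensity trend in the fit (adjusted p = 0.11 for mt-Co3 and 0.0605 for mt-Co2 by limma). Without P25-WT replicate 2, 8 listed genes were called, and 5 with copies, while the count over all genes rose from 1521 to 2403 as listed and from 1535 to 2417 with copies. The call of mt-Nd4l with its copy was lost without each of the other 5 libraries (adjusted p up to 0.171 by limma), so that 0 of the 10 were then called with copies. Scaling to the same total gave 6 listed calls and moved the split over all genes from 644 higher and 877 lower to 991 higher and 681 lower.

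Within KO mice, 7 of the 10 were called as listed, all higher, where 20.7% of genes were called, 9.37% higher and 11.3% lower. They were mt-Nd1 (0.25 ± 0.06), mt-Nd2 (0.47 ± 0.05), mt-Nd3 (1.04 ± 0.18), mt-Nd4 (0.31 ± 0.05), mt-Nd5 (0.31 ± 0.07), mt-Co1 (0.34 ± 0.06) and mt-Co2 (0.62 ± 0.13), with adjusted p-values by limma from 0.000567 for mt-Nd2 to 0.0142 for mt-Nd1. With copies the count was again 7, with mt-Nd4l (0.44 ± 0.07, adjusted p = 0.00212) in place of mt-Co2 (0.16 ± 0.05, adjusted p = 0.0616 by limma). With copies mt-Nd3 rose by 0.32 ± 0.07 and mt-Co1 by 0.34 ± 0.06 (adjusted p = 0.0115 and 0.00363), and mt-Co3 differed by 0.12 ± 0.05 (adjusted p = 0.129). On that scale 20.8% of genes were called, 9.42% higher and 11.4% lower. The ages did not overlap for 7 of the 10 genes as listed and for 8 with copies, against 39.4% of all genes. With the trend on length and GC content removed, mt-Nd1, mt-Nd4 and mt-Nd5 were no longer called (adjusted p = 0.114, 0.0506 and 0.129). Without an intensity trend, mt-Nd1, mt-Nd5 and mt-Co2 were not called (adjusted p = 0.0800, 0.0723 and 0.0792 by limma). The call of mt-Nd1 was also lost with all 12 libraries in the fit, without P25-KO replicate 1 and without P60-KO replicate 1. Scaling to the same total moved the split over all genes from 1649 higher and 1992 lower to 2108 higher and 1620 lower.

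The larger count in KO than in WT does not show that the age change differed between the genotypes. That difference was tested as the genotype by age interaction, in which 0 of 17594 genes were called by limma and 288 had an unadjusted p under 0.05, among them 3 of the 10 as listed and 2 with copies. With copies all 10 interaction terms were positive, from 0.12 to 0.24, with a median of 0.17 against 0.01 over all genes. They stayed positive whichever library was left out. Without P25-WT replicate 2, mt-Co3 was 0.041 and mt-Nd1 and mt-Co2 were each 0.082. Without P60-KO replicate 1, mt-Nd5 was 0.052. Other lists leaned the same way: 34 of 37 nuclear complex I subunits (median 0.17), 14 of 15 nuclear complex IV subunits (0.15) and 5 of 5 other mitochondrially encoded genes (0.17). In mitochondrial DNA upkeep and biogenesis, 2 of 16 were positive. The listed term of mt-Nd4l was the most negative, -0.87 ± 0.25 (unadjusted p = 0.00354 and adjusted p = 0.99996 by limma), and with its copy it was 0.17 ± 0.09.

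To ask how the Shank3 deletion bears on these genes, KO was compared with WT at each age. At P25 none of the 10 was called and 238 genes had an unadjusted p under 0.05 (limma); the single call among 17515 genes (0.00571%) was Shank3. As listed, 8 of the 10 differences were negative, with a median of -0.08 against -0.01 over all genes, and with copies all 10 were negative, from -0.14 to -0.05. Without P25-WT replicate 2, 4 of the 10 were positive with copies: mt-Nd1 (0.015), mt-Nd3 (0.028), mt-Co2 (0.015) and mt-Co3 (0.082). The widest departure was the listed mt-Nd4l at 0.57 ± 0.11, with every KO library above every WT library (95% interval 0.31 to 0.83, unadjusted p = 0.000784 and adjusted p = 0.99996 by limma). The groups did not overlap for 4.76% of all genes. Its copy Gm10222 went the other way, from 14683, 14003 and 13529 in P25-WT to 10111, 11536 and 11176 in P25-KO, and the sum of both differed by -0.14 ± 0.07.

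At P60 none of the 10 was called either and 440 genes had an unadjusted p under 0.05 (limma); Shank3 was again the single call, among 17610 genes (0.00568%). Here 9 of the 10 listed differences were positive, with a median of 0.09 against 0.00 over all genes, and with copies all 10 were, from 0.03 to 0.18. Without P60-KO replicate 1, mt-Nd5 was -0.023 and mt-Nd4l with its copy -0.0031, and without P60-WT replicate 1 the latter was -0.011. KO lay above WT without overlap for mt-Nd2, mt-Nd3 and mt-Nd4 as listed and also for mt-Co3 with its copy, where 7.79% of all genes did not overlap. The difference of mt-Nd2 was 0.12 ± 0.05 and that of mt-Nd3 with its copy 0.18 ± 0.06 (unadjusted p = 0.0221 and 0.00926, adjusted p = 0.9995 by limma). P60-KO replicate 1 had the highest summed level of the 10 genes, at 4.29% of its table total.

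Averaged over the ages, none of the 10 was called in KO against WT, and Shank3 was the single call (0.00568% of 17594 genes; 361 had an unadjusted p under 0.05 by limma). With copies, where 0.00569% of genes were called, the differences ran from -0.06 for mt-Nd4l to 0.07 for mt-Nd3. The 95% intervals were -0.08 to 0.09 for mt-Nd4, -0.11 to 0.10 for mt-Co1 with copies and -0.14 to 0.18 for mt-Co3 with its copy.

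**Figure D4:**
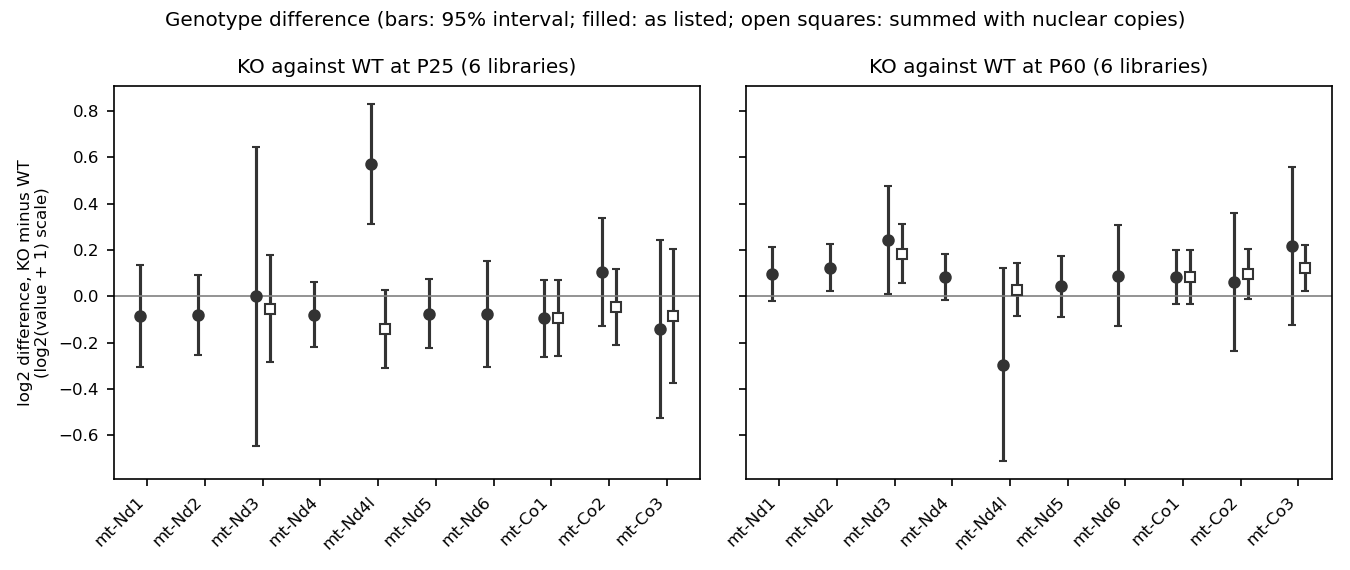
Log2 difference between KO and WT at P25 (left) and P60 (right) for the 10 genes, with 95% intervals from limma over 6 libraries each; filled points are listed values and open squares sums with nuclear copies. With copies all 10 points lie below 0 at P25, where 4 turn positive without P25-WT replicate 2, and above 0 at P60, where mt-Nd5 and mt-Nd4l turn negative without P60-KO replicate 1; none passed the adjusted threshold.

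Many nuclear genes of the same complexes were lower at P60. Averaged over genotype, 22 of 37 nuclear complex I subunits were lower at P60 and 0 were higher, with a median of -0.29 against 0.00 over all genes, where 19.3% of all genes were called lower and 18.3% higher. Of the 37 differences, 4 were positive and not called. Of 15 nuclear complex IV subunits tested, 8 were lower and 0 higher, with a median of -0.39. Ndufv3, an accessory subunit of the NADH-binding module, fell by 0.63 ± 0.09 and Ndufa11, of the membrane arm, by 0.52 ± 0.09 (adjusted p = 0.000115 and 0.000802 by limma). Cox6a1, a small subunit of complex IV, fell by 0.77 ± 0.12 and its muscle-type counterpart Cox6a2 by 0.75 ± 0.12 (adjusted p = 0.000175 and 0.000341 by limma).

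The summed 7 mitochondrial complex I genes, with copies, were 5.02 to 6.74 times the summed nuclear complex I subunits at P25 and 8.18 to 8.86 times at P60, without overlap. For complex IV the ratio was 10.6 to 14.98 at P25 and 19.8 to 21.1 at P60. P25-WT replicate 2 had the lowest ratio in both complexes, since its nuclear complex I subunits were 0.55 above the 12-library mean on the log2 scale and its nuclear complex IV subunits 0.61 above. Without that library 22 nuclear complex I subunits were called lower and 3 higher, with a median of -0.19, and 8 nuclear complex IV subunits were called lower, with a median of -0.29, where 3500 of 17594 genes were lower and 3243 higher. Scaled to the same total over nuclear genes, 17 nuclear complex I subunits were lower and 1 higher, and 7 nuclear complex IV subunits were lower, where 2515 of 17597 genes were lower and 4370 higher. The summed oligodendrocyte, astrocyte and blood markers were lower at P60, as the nuclear subunits were, and the summed neuron markers higher, as the mitochondrial genes were, and their part was not tested.

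Within WT, 2 nuclear complex I subunits and 4 nuclear complex IV subunits were called, all lower, where 4.99% of all genes were called lower; 2 of 37 is near that share. The first count ran from 0 to 24 and the second from 0 to 8 when 1 library was left out. The counts were 0 without P25-WT replicate 1 and without each of the 3 P60-WT libraries, and highest without P25-WT replicate 3. Over all genes, 104 to 249 were lower in the fits with counts of 0, and 1325 of 17577 without P25-WT replicate 3. Within KO, 15 of 37 nuclear complex I subunits were lower and 2 higher (Ndufab1 by 0.29 ± 0.07 and Ndufc2 by 0.24 ± 0.07), and 7 of 15 nuclear complex IV subunits were lower, where 11.3% of all genes were called lower. The complex I count was 7 to 17 leaving out libraries, where 1213 to 1755 of all genes were lower. It was 2 without an intensity trend, where 997 of 17596 genes were lower, and 2 with all 12 libraries in the fit, where the complex IV count was 3 and 1377 of 17594 genes were lower. In both of these fits 2 of 37 was near or under the share of all genes. No nuclear subunit was called in KO against WT at either age (limma), where 5 complex I subunits had an unadjusted p under 0.05 at P60 and none at P25. At P25, 4 of 37 nuclear complex I differences were positive, with a median of -0.08, and at P60, 31 of 37, with a median of 0.06. The P25 direction rested on P25-WT replicate 2, without which 35 of 37 were positive, with a median of 0.10, while the P60 count was 26 to 35 whichever library was left out.

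**Figure D5:**
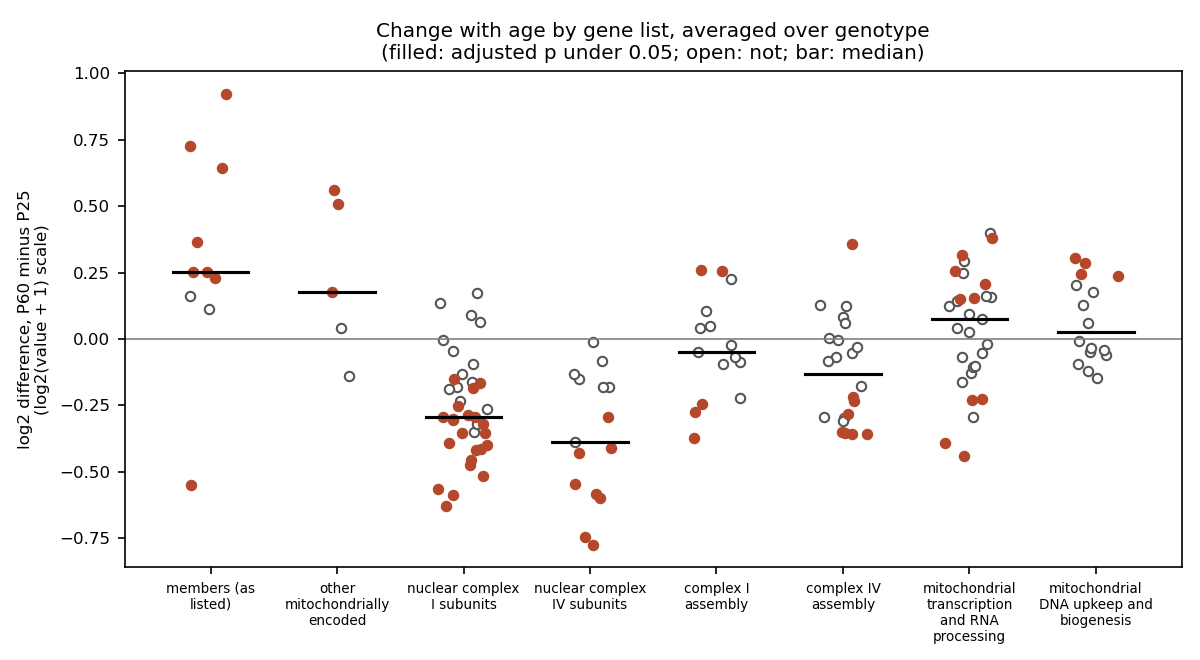
Log2 difference between P60 and P25 averaged over genotype, for the 10 listed mitochondrial genes and 7 related gene lists; each point is a gene, filled where the adjusted p by limma was under 0.05, and bars are medians. The nuclear subunits of complexes I and IV lie mostly below 0 (medians -0.29 and -0.39), and the mitochondrial genes mostly above it.

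Genes that build the complexes or act on mitochondrial RNA and DNA were called with age in counts near or under the 37.6% of all genes called. Of all genes, 18.3% were called higher and 19.3% lower. Complex IV assembly factors leaned lower, with 6 of 22 differences positive and a median of -0.13. Of 15 complex I assembly factors, 2 were higher at P60 (Tmem126b by 0.26 ± 0.06 and Ndufaf4 by 0.26 ± 0.07) and 3 lower (Ecsit fell by 0.27 ± 0.06 and Ndufaf8 by 0.37 ± 0.12). Of 22 complex IV assembly factors, 1 was higher (Cox20, which assists the maturation of the mt-Co2 product, by 0.36 ± 0.10) and 7 lower, among them Cox10 and Cox19, which fell by 0.23 ± 0.05 and 0.28 ± 0.06. Of 29 genes of mitochondrial transcription and RNA processing, 6 were higher and 4 lower. Pnpt1, an RNA-degrading enzyme of mitochondria, rose by 0.38 ± 0.06 and the transcription factor Tfb2m by 0.25 ± 0.06, while Fastk and the tRNA-processing enzyme Elac2 fell by 0.23 ± 0.04 and 0.23 ± 0.05. Of 16 genes of mitochondrial DNA upkeep and biogenesis, 4 were higher and 0 lower, among them Rrm2b (0.24 ± 0.05), which supplies deoxynucleotides, and the coactivator Ppargc1a (0.24 ± 0.07).

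The 5 other mitochondrially encoded genes in the table were described beside the 10. With age, averaged over genotype, the ATP synthase subunits mt-Atp8 and mt-Atp6 were higher by 0.56 ± 0.09 and 0.51 ± 0.13, and mt-Cytb, of complex III, by 0.18 ± 0.05 (adjusted p = 0.000204, 0.00766 and 0.00859 by limma). The listed value of mt-Atp6 was 12.8% to 25.02% of its sum with the nuclear copy Gm10925. That sum was 153129 to 204085 at P25 and 160437 to 188450 at P60, so that the ages overlapped, and its difference was not tested. The ribosomal RNAs mt-Rnr1 and mt-Rnr2, which lie on the same strand as all of the 10 genes but mt-Nd6, differed by 0.04 ± 0.08 and -0.14 ± 0.09 and were not called (adjusted p = 0.743 and 0.232 by limma).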

How the data were processed

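Libraries were prepared with the TruSeq RNA Sample Prep Kit v2, which selects polyadenylated RNA and does not mark strand. According to the methods and processing notes, the authors quantified transcripts with Salmon 1.1.0 with GC bias correction, imported them with tximport and normalized them with DESeq2 (1.26.0 in the notes) on GRCm38. The deposited values are normalized counts (signal on a count scale) from 12 libraries normalized together, not whole reads. The transcript set and strand setting are not given in the sources used here, and a 0 may be a failed estimate. Copies of a mitochondrial gene compete for the same reads in such a quantification. The smallest sum of a listed gene over the 12 libraries was 51.1.

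Symbols, lengths and sequences came from GENCODE M21, which matched 19252 of 19268 identifiers. Groups and replicate numbers came from sample titles. Values were tested as log2(value + 1), for genes with a mean of at least 10, with limma 3.58.1 in R 4.3.3 (lmFit, eBayes with an intensity trend) and Benjamini-Hochberg adjustment over all genes; a gene was called at an adjusted p under 0.05. This scale understates changes of low genes. Within-age and within-genotype fits used 6 libraries, and the interaction and averages used 12. P-values measure the spread between 3 libraries per group, which may be partly technical. No count model was fitted. Nuclear copies were genes in the table that share 31-base words with 1 of the 10 genes, looked up on both strands.

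The code was tested on simulated data with known changes. A simulated log2 difference of 0.5 was recovered in 5 of 50 genes in the interaction. With age it was recovered in 7 of 50 in WT, 25 of 50 in KO and 35 of 50 averaged over genotype. In KO against WT it was recovered in 37 of 50 at P25 and 45 of 50 at P60. Smaller differences were not simulated, and a gene that was not called may still differ. A marker gene of the list for oligodendrocytes is not reported here and was left out of its sum. Alternatives were a pseudocount of 10, no minimum mean, scaling to the same total over all or over nuclear genes, no intensity trend, removal of trends on length and GC content, a replicate block, all 12 libraries in each fit, leaving out each library, and, chosen after seeing the data, summing with nuclear copies and all alternatives for the nuclear subunit lists. Named genes were the 10 genes, the other mitochondrially encoded genes, the nuclear copies, Shank3, the 2 genes per direction and list with the smallest adjusted p, and the 5 genes most and 2 least correlated with the 10. The 10 genes and all lists were chosen with earlier results of these data known.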

Additional observations from a re-analysis of the deposited data

How the results depend on the processing

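Depth could not be weighed because it is unknown. Same-numbered libraries were treated as unpaired, and the sample titles do not state a pairing. Correlations of their deviations from group means ran from -0.07 to 0.17. Those of P60-KO with P60-WT were 0.06, 0.17 and 0.13. With the replicate block, 0 genes were called in KO against WT at P25, mt-Nd3 with age in WT and mt-Nd1 with age averaged over genotype were called (adjusted p = 0.0247 and 0.0282 by limma), and nuclear complex I subunits called lower were 4 in WT and 9 in KO. No call among the 10 genes reversed except mt-Co3 with nuclear copies, P60 against P25 averaged over genotype. The causes of the changes below were not tested.

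In KO against WT at P25, genes called were 0 without an intensity trend and 0 with length and GC trends removed, and 0 to 8 leaving out libraries. At P60, genes called were 0 without an intensity trend and 1 to 3 leaving out libraries. In the interaction the count was 0 to 1 leaving out libraries. For P60 against P25 in WT, members called were 6 at the same total over all genes, 7 over nuclear genes, 1 without an intensity trend, 1 with copies and 5 with all 12 libraries, and 1 to 8 leaving out libraries. Genes called were 192 without an intensity trend, 3442 with all 12 libraries and 122 to 2403 leaving out libraries. Of 17580 genes, 991 were higher and 681 lower at the same total over all genes, and 1151 higher and 653 lower over nuclear genes. In KO, members called were 4 without an intensity trend and 4 with length and GC trends removed, and genes called 1725 without an intensity trend and 2093 to 3230 leaving out libraries. With length and GC trends removed, 1209 of 17596 genes were higher in KO and 1647 lower.

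With nuclear copies, leaving out libraries gave 0 to 8 genes called at P25, 1 to 3 at P60, 119 to 2417 with age in WT, 2116 to 3269 in KO and 0 to 1 in the interaction, and 0 to 5 members called with age in WT. Singly it gave, at P25, -0.15 to 0.028 for mt-Nd3, -0.093 to 0.015 for mt-Co2 and -0.20 to 0.082 for mt-Co3; at P60, -0.011 to 0.062 for mt-Nd4l; with age in WT, -0.013 to 0.17 for mt-Nd3, -0.031 to 0.077 for mt-Co2 and -0.20 to 0.081 for mt-Co3; with age averaged over genotype, -0.023 to 0.10 for mt-Co3; and in KO against WT averaged over age, -0.037 to 0.033 for mt-Co1 and -0.022 to 0.10 for mt-Co3. Nuclear complex I subunits called lower in WT were 0 without an intensity trend, 12 with all 12 libraries and 0 to 24 leaving out libraries, and in KO 2, 2 and 7 to 17, with 9 after removal of length and GC trends. Nuclear complex IV subunits called lower in WT were 0 without an intensity trend, 7 with all 12 libraries and 0 to 8 leaving out libraries, and in KO 3 with all 12 libraries.

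Among the 10 genes singly, most reversals were of differences near 0 that passed no threshold. With nuclear copies, values were -0.14 for mt-Nd4l and -0.047 for mt-Co2 in KO against WT at P25, 0.029 for mt-Nd4l at P60, -0.056 for mt-Nd4l averaged over age, 0.17 for mt-Nd4l and 0.14 for mt-Co2 in the interaction, and for mt-Co3 0.12 with age in KO and 0.019 averaged over genotype. At the same total over all or nuclear genes, mt-Nd3 at P25 was 0.013 or 0.0091, and mt-Co1 averaged over age 0.00039 or 0.0014. With length and GC trends removed, mt-Nd6 was -0.074 with age in WT and -0.033 in KO against WT averaged over age, where mt-Co1 was 0.0059. Leaving out libraries gave, at P25, -0.18 to 0.015 for mt-Nd1, -0.27 to 0.31 for mt-Nd3, -0.0046 to 0.17 for mt-Co2 and -0.30 to 0.080 for mt-Co3. At P60 it gave -0.023 to 0.10 for mt-Nd5 and -0.060 to 0.25 for mt-Co2. With age in WT it gave -0.028 to 0.17 for mt-Nd1 and -0.045 to 0.073 for mt-Nd6, and in the interaction -0.065 to 0.52 for mt-Nd3 and -0.17 to 0.15 for mt-Co2. In KO against WT averaged over age it gave -0.027 to 0.061 for mt-Nd1, -0.0058 to 0.064 for mt-Nd2, -0.023 to 0.022 for mt-Nd4, -0.051 to 0.0085 for mt-Nd5, -0.033 to 0.055 for mt-Nd6, -0.036 to 0.033 for mt-Co1 and -0.071 to 0.16 for mt-Co3.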

Other observations

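The genes not encoded in mitochondria whose log2 values followed the mean of the 10 genes most closely over the 12 libraries were Gm13340 (Pearson r = 0.93), which is itself a nuclear copy of mt-Co1, Dynlt1a (0.93), Gm2974 (0.92), Gm6145 (0.92) and Cox20 (0.92). The lowest values were those of Hhip (-0.96) and Lrrc58 (-0.96). The ranking used the listed values. With the 10 genes summed with nuclear copies, the correlations were weaker: Gm13340 0.90, Dynlt1a 0.86, Gm2974 0.85, Gm6145 0.85, Cox20 0.87, Hhip -0.90 and Lrrc58 -0.92. These correlations are descriptions over 12 libraries that share the age difference.

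The summed complex IV genes were 1.07 to 1.21 times the summed complex I genes as listed, and 1.68 to 1.88 times with nuclear copies. With copies the ratio was 1.72 to 1.88 at P25 and 1.68 to 1.73 at P60.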
